A study of Mus musculus with 3 samples.

Results

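The genes described here are 9 mouse genes of antioxidant and xenobiotic defence: Gstm1, Gstm3, Gsta1, Nqo1, Cbr1, Cbr3, Gpx2, Slc7a11 and Cbr2. They were taken by symbol from the gene lists of 3 single-cell RNA libraries, and all 9 were present in each, among 46675 genes measured in any library. They had been picked out because of their low level in the epithelium of the YAP5SA library, so their epithelial values in that library are given as a description and not as a test.

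The libraries came from embryonic hindstomach, the glandular part of the stomach, at E18.5 (embryonic day 18.5). One library carried Shh-Cre with YAP5SA, a YAP protein with its inhibitory phosphorylation sites mutated, and is called YAP5SA. One carried Shh-Cre with both Yap alleles floxed (Shh-Cre;YaploxP/loxP) and is called Yap knockout, and one carried Shh-Cre alone and is called control. All 3 genotypes therefore carried Shh-Cre, a recombinase driven from the Shh locus, which is known to be active in the gut epithelium rather than the mesenchyme. Each genotype had 1 library, so no test between genotypes was possible, and how many embryos were pooled was not stated. All intervals below are 95% intervals that cover counting error only, and a difference between libraries has no replicate check.

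Cells defend themselves against electrophiles and peroxides largely through glutathione, a small thiol made from cysteine. Cystine enters through the transporter encoded by Slc7a11, glutathione transferases (Gstm1, Gstm3, Gsta1) attach glutathione to foreign or oxidised compounds, and the glutathione peroxidase Gpx2, best known from the gut lining, uses it to reduce peroxides. Nqo1 reduces quinones, and Cbr1, Cbr2 and Cbr3 reduce carbonyl groups. Many of these genes are known targets of the transcription factor NRF2 (Nfe2l2), which is held in check by KEAP1 and binds antioxidant response elements in DNA.

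Gstm1 and Gstm3 lie 48.799 kb apart, start to start, on chromosome 3, and Cbr1 and Cbr3 lie 75.382 kb apart on chromosome 16 (RefSeq, GRCm38.p6). RefSeq promoter windows, from 250 bases before to 50 bases after the start, were found for all 9 genes. The windows were searched on both strands for TGACNNNGC, the core of the antioxidant response element, and for GGAATG, the core bound by the TEAD partners of YAP. Neither was found in any of the 9 genes, while 14.0% and 16.6% of 27025 genes held one. A variant element, TGAGNNNGC, was searched for after those 2 searches had come back empty, and it was found in 1 of the 9 genes, Slc7a11, against 19.8% of all genes. So 3 motifs were searched, and the 1 match came from the motif added last. A missing match says only that these letters are not in this window. The Slc7a11 stretch is shown because it holds the only match. The 60 bases before the start of Gstm1 and Gstm3 are shown because these neighbours had the most alike levels of any pair involving Gstm1, as given below. The sequences are RefSeq's for GRCm38.p6 (mouse chromosome 3, minus strand), written 5′ to 3′ on the gene's strand. Capitals mark the match, which lies on the opposite strand and starts 97 bases before the Slc7a11 start.
Slc7a11, chr3:50443687-50443726: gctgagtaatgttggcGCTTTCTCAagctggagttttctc
Gstm1, chr3:108017974-108018033: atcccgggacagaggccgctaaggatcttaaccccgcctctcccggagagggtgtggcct
Gstm3, chr3:107969175-107969234: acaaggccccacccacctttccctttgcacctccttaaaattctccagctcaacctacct
The Gstm1 and Gstm3 stretches had the same base at 17 of 60 positions without gaps.

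After filtering, 8512 YAP5SA, 4892 Yap knockout and 6931 control cells were kept, with a median of 5231.5, 4963.5 and 4885 UMIs (unique molecular identifiers, each standing for 1 captured RNA molecule) per cell. A cell was counted as epithelial when at least 3 of 14 epithelial markers, Epcam among them, had a UMI and their share was at least 2 times the average. That enrichment also had to be the highest of the 7 cell classes gated. This gate held 1607 YAP5SA, 685 Yap knockout and 475 control cells, with a median of 7047, 4866 and 3668 UMIs. Epcam stood at 395, 309 and 288 CPM (a gene's share of the summed UMIs, scaled to 1e+06) inside the gate, and at 28.0, 16.4 and 9.36 CPM in cells of the other gates and those in none. Yap1 was at 55.3 CPM in YAP5SA, 22.4 CPM in Yap knockout and 50.9 CPM in control epithelium. A 3′ tag of Yap1 may lie outside the deleted part and may not count the YAP5SA transgene, so it checks the labels only in part. RNA of other cells was present in the gate: the 13 mesenchymal markers summed to 4311 CPM in YAP5SA, 2545 CPM in Yap knockout and 9780 CPM in control epithelium, with none at 0. With the profile of the non-epithelial cells subtracted from each library's epithelial sum, all 9 genes were past 2-fold lower in YAP5SA than in control. The log2 ratios were -4.29 for Gstm1 and -3.62 for Nqo1. The subtracted part, set by collagen genes, was 28.8% of the sum in YAP5SA and 42.9% in control. Taking more from control raises its CPM more for genes low outside the epithelium. The 9 genes were also chosen on this contrast, so the subtraction is no separate support. Cell names are serial numbers in these files, so the 1388 to 2409 names that pairs of libraries share do not identify shared cells.

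All 9 genes were lower in YAP5SA than in control epithelium, each by more than 2-fold. In Yap knockout epithelium 8 of the 9 were within 2-fold of control and only Cbr2 was lower by more. A gene was called past 2-fold on log2(CPM + 5) if it reached 10 CPM in one of the libraries compared. By that measure 6.25% of 10137 genes were lower and 7.99% higher in YAP5SA than in control epithelium, but the 9 were chosen on this contrast and nothing is read from their count. In Yap knockout against control epithelium, 2.65% of 9917 genes were lower and 1.75% higher, so 1 of 9 lower and 0 of 9 higher is a small count in a short list. This differed among shallower cells: in epithelial cells with at most 6000 UMIs, a setting added after seeing the data, Gstm1 (log2 ratio -1.29), Cbr3 (-1.06) and Cbr2 (-2.37) were past 2-fold lower and Slc7a11 (1.43) past 2-fold higher in Yap knockout. In those cells 3.94% of 11039 genes were lower and 7.85% higher.

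**Figure D1:**
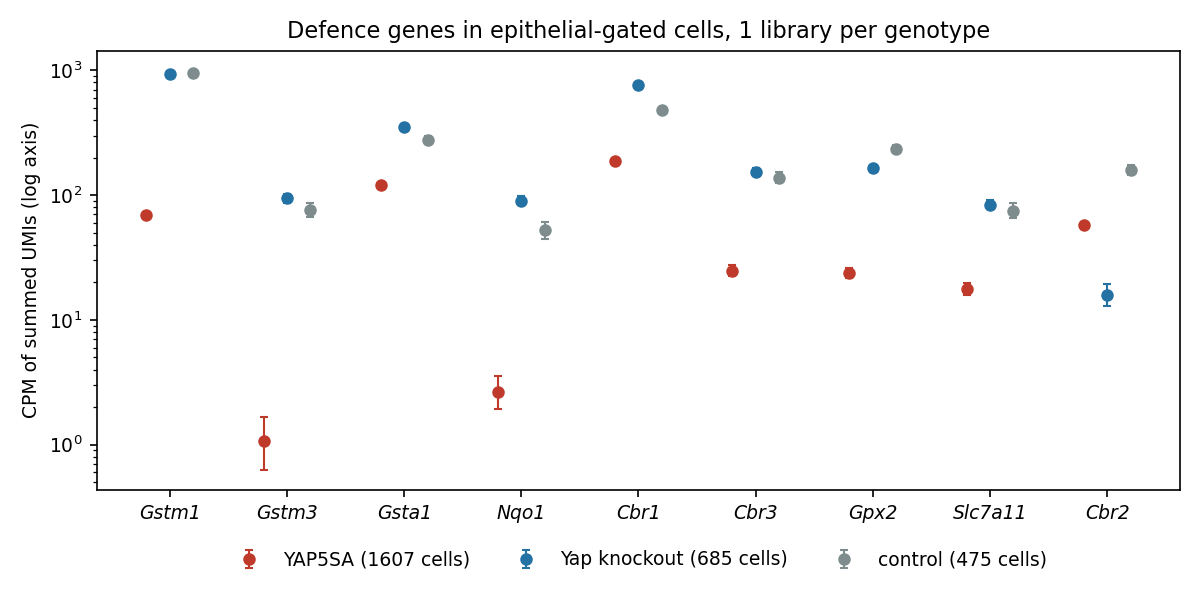
CPM of the 9 genes (log axis) in epithelial-gated cells of the YAP5SA, Yap knockout and control libraries, 1 library each, with 95% counting intervals as bars. The YAP5SA points are lowest for 8 genes, and for Cbr2 the lowest is Yap knockout at 15.96 CPM.

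Gstm1, a mu-class glutathione transferase, stood at 69.4 CPM (1177 UMIs) in YAP5SA, 935 CPM (5974 UMIs) in Yap knockout and 957 CPM (2914 UMIs) in control epithelium. YAP5SA was 13.8-fold lower than control (12.9 to 14.8). The ratio of Yap knockout to control was 0.98 (0.93 to 1.02) over all epithelial cells, but among those with at most 6000 UMIs Gstm1 was at 368 CPM in Yap knockout and 904 CPM in control. A UMI of Gstm1 was found in 34.1%, 64.1% and 76.6% of epithelial cells of YAP5SA, Yap knockout and control, although the YAP5SA cells were the deepest. With each cell thinned to 1000 UMIs these shares were 6.97%, 35.6% and 49.1%.

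Gstm3, a second mu-class transferase, was close to absent in YAP5SA epithelium. It had 18 UMIs (1.06 CPM) in 1607 YAP5SA cells, against 603 UMIs (94.4 CPM) in Yap knockout and 231 UMIs (75.9 CPM) in control. The YAP5SA value was 71.4-fold lower than control (44.2 to 123). The ratio of Yap knockout to control was 1.24 (1.07 to 1.45) over all epithelial cells. Among those with at most 6000 UMIs the direction was turned round, with Gstm3 at 35.5 CPM in Yap knockout and 73.4 CPM in control (log2 ratio -0.95). The share of epithelial cells with a UMI of Gstm3, 1.06% in YAP5SA, can be set against 25.0% in Yap knockout and 21.9% in control. In erythroid cells, which should lack the gene, the shares were 0 of 487 (which allows up to 0.755%), 2.63% and 1.69% in YAP5SA, Yap knockout and control, at median depths of 5848, 4858.5 and 6075 UMIs. In all non-epithelial cells they were 0.188% (0.100 to 0.322), 3.26% and 1.80%, so in YAP5SA the epithelial share (0.617 to 1.69) was above that of the other cells of its library.

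Gsta1, an alpha-class transferase, showed the smallest difference of the 9. It stood at 120 CPM in YAP5SA, 349 CPM in Yap knockout and 278 CPM in control epithelium, 2.32-fold lower in YAP5SA than in control (2.14 to 2.52). In control epithelium 36.2% of its UMIs came from 51 pit-gated cells, the surface mucous cells of the stomach, and in Yap knockout 59.1% from 74 pit-gated cells. Pit-gated cells carried 1416 CPM in Yap knockout and 1186 CPM in control. The YAP5SA library had 1 pit-gated cell, so its pit level could not be compared. Outside all subtype gates Gsta1 was 120 CPM in YAP5SA and 188 CPM in control, 1.57-fold lower and no longer past 2-fold.

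Nqo1, the quinone reductase, had 45 UMIs in YAP5SA epithelium, 575 in Yap knockout and 160 in control, or 2.65, 89.98 and 52.5 CPM. It was 19.8-fold lower in YAP5SA than in control (14.1 to 28.2) and 1.71-fold higher in Yap knockout than in control (1.43 to 2.05). The Yap knockout difference was not seen in cells with at most 6000 UMIs, at 61.4 CPM in Yap knockout and 61.2 CPM in control. The YAP5SA epithelial level was below the 4.53 CPM of the non-epithelial cells of the same library, where Yap knockout had 11.4 and control 9.89 CPM. In pit-gated cells Nqo1 reached 244 CPM in Yap knockout and 116 CPM in control, while 48 parietal-gated cells of Yap knockout had 12.5 CPM.

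Cbr1, the widely expressed carbonyl reductase, stood at 188 CPM in YAP5SA, 767 CPM in Yap knockout and 476 CPM in control epithelium. It was 2.53-fold lower in YAP5SA than in control (2.38 to 2.69) and 1.61-fold higher in Yap knockout than in control (1.52 to 1.71). In cells with at most 6000 UMIs the Yap knockout direction was turned round, at 344 CPM in Yap knockout and 420 CPM in control (log2 ratio -0.28). It was also the only one of the 9 with over 100 CPM in neural cells of every library, at 146, 197 and 132 CPM in YAP5SA, Yap knockout and control.

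Its neighbour Cbr3, a close relative of Cbr1, was lower in level and differed more. It stood at 24.8 CPM in YAP5SA, 154 CPM in Yap knockout and 138 CPM in control epithelium. YAP5SA was 5.55-fold lower than control (4.84 to 6.37), and the ratio of Yap knockout to control was 1.12 (0.996 to 1.26), an interval that includes 1.

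Cbr2, a carbonyl reductase known from mouse lung, followed another pattern. It stood at 57.4 CPM in YAP5SA, 15.96 CPM in Yap knockout and 160 CPM in control epithelium, so both genotypes were below control, by 2.79-fold (2.49 to 3.11) and 10.0-fold (8.08 to 12.5). Most of its control UMIs came from a few squamous-gated cells, marked by Krt5, Trp63 and other genes of stratified epithelium: 10 such cells held 92.6% of the 487 UMIs, at 3523 CPM, and each of the 10 had a UMI. In YAP5SA 110 squamous-gated cells held 67.1% of the UMIs at 418 CPM, with a UMI in 54.5% of them. Yap knockout had 3 squamous-gated cells. Outside all subtype gates the order was turned round, with 20.9 CPM in YAP5SA, 24.7 CPM in Yap knockout and 13.3 CPM in control. Single cells weighed heavily as well: 1 cell gave 20.6% of the UMIs in YAP5SA, 52.0% in Yap knockout and 22.0% in control. The Yap knockout cell, with 53 of its library's 102 UMIs, lay outside the subtype gates, and without it Yap knockout stood at 9.85 CPM there, below the 13.3 CPM of control (log2 ratio -0.30). With the top ungated cell left out in each library the values were 15.6, 9.85 and 6.96 CPM in YAP5SA, Yap knockout and control, so the ungated order of Yap knockout and control rests on single cells. The lower Cbr2 of the whole epithelium therefore rests on the 10 control squamous-gated cells.

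**Figure D2:**
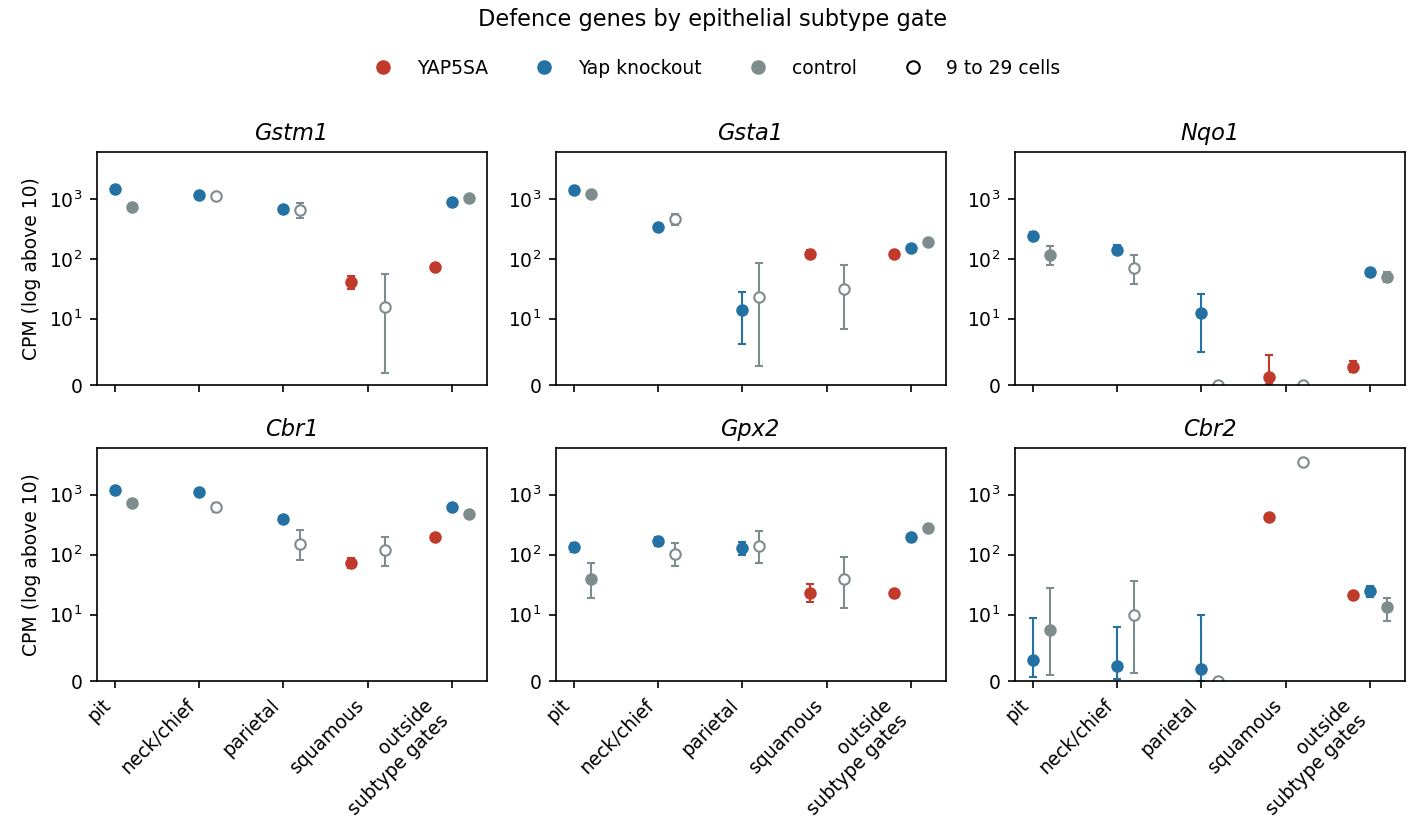
CPM of 6 of the genes by epithelial subtype gate and library (linear below 10 CPM, log above), with 95% counting intervals as bars and open symbols for gates of 9 to 29 cells. Gsta1 and Nqo1 are highest in pit-gated cells, and Cbr2 stands at 3523 CPM in 10 control squamous-gated cells.

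Gpx2 was at 23.7 CPM in YAP5SA, 165 CPM in Yap knockout and 235 CPM in control epithelium. It was 9.90-fold lower in YAP5SA than in control (8.75 to 11.2) and 1.42-fold lower in Yap knockout than in control (1.29 to 1.57). Unlike Gsta1, it was not highest in pit-gated cells. In control, cells outside the subtype gates had 282 CPM and 51 pit-gated cells 38.6 CPM, from 10 UMIs. Outside the subtype gates it stood at 23.1 CPM in YAP5SA and 198 CPM in Yap knockout. The 74 pit-gated cells of Yap knockout had 133 CPM (124 UMIs), so the gap to ungated cells was smaller there.

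Slc7a11 stood at 17.6 CPM in YAP5SA, 83.7 CPM in Yap knockout and 75.2 CPM in control epithelium, 4.26-fold lower in YAP5SA than in control (3.57 to 5.08). Its highest level was in immune-gated cells, with 374 CPM in YAP5SA, 255 CPM in Yap knockout and 217 CPM in control. There the YAP5SA value was 1.72 times control (1.57 to 1.89), the opposite direction to the epithelium. A UMI was found in 51.1%, 35.3% and 32.0% of immune-gated cells of YAP5SA, Yap knockout and control. The make-up of that gate differed too: S100a8, a neutrophil gene, was at 1547, 851 and 529 CPM. Among immune-gated cells with no UMI of S100a8, Slc7a11 was at 348, 254 and 175 CPM in YAP5SA, Yap knockout and control. Among those with a UMI of S100a8 (682, 115 and 57 cells) it was at 397, 258 and 542 CPM, so there YAP5SA was below control.

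The same 9 genes were read in the mesenchyme, which Shh-Cre is not known to target. None of the 9 was past 2-fold on log2(CPM + 5) in mesenchymal-gated cells, of 863 YAP5SA, 392 Yap knockout and 1862 control cells. Background was 0.524% of genes lower and 1.43% higher in YAP5SA against control, and 4.42% lower and 2.44% higher in Yap knockout against control. Only 4 of the 9, Gstm1, Nqo1, Cbr1 and Slc7a11, reached 10 CPM. Gstm1 was at 85.7 CPM in YAP5SA, 91.8 CPM in Yap knockout and 145 CPM in control mesenchyme, 1.70-fold lower (1.54 to 1.87) and 1.59-fold lower (1.43 to 1.77) than control. Nqo1 was at 5.10 CPM in YAP5SA, 10.6 CPM in Yap knockout and 10.5 CPM in control mesenchyme. Its plain CPM ratio was 2.07-fold lower in YAP5SA than in control (1.40 to 3.14), from 32 and 143 UMIs. It was not called because its log2 ratio of (CPM + 5) was -0.62. Slc7a11 was at 16.2 CPM in YAP5SA, 12.3 CPM in Yap knockout and 9.88 CPM in control mesenchyme. With Leiden clusters in place of the gate, Gstm1 was past 2-fold lower in YAP5SA mesenchyme (log2 ratio -1.08). The 5 genes under 10 CPM were too low in the mesenchyme for a call.

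**Figure D3:**
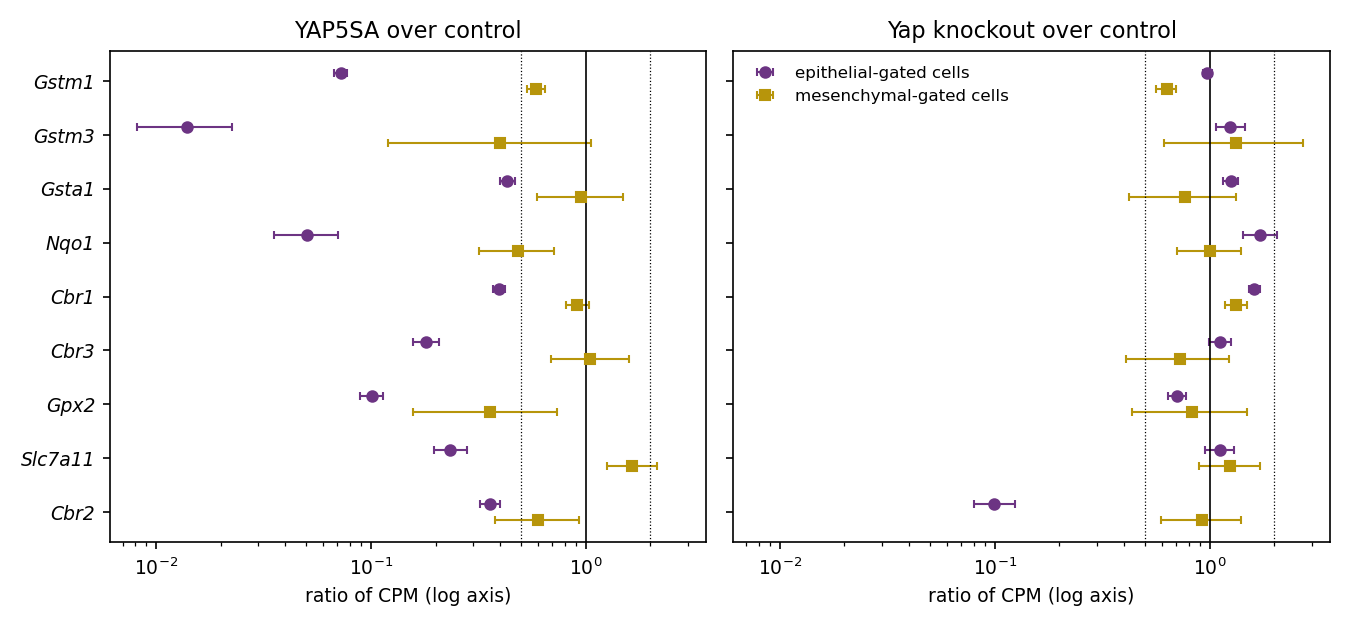
Ratio of CPM (log axis) of the 9 genes, YAP5SA over control on the left and Yap knockout over control on the right, in epithelial-gated (circles) and mesenchymal-gated (squares) cells, with 95% counting intervals; dotted lines mark 2-fold. The epithelial ratios of YAP5SA lie between 0.014 and 0.43, and the mesenchymal ones of genes with at least 10 CPM between 0.48 and 1.65.

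Over all non-epithelial cells, Gstm1 was at 65.1 CPM in YAP5SA and 161 CPM in control, 2.47-fold lower. Slc7a11 was at 88.4 CPM in YAP5SA and 22.7 CPM in control, 3.89-fold higher. Immune-gated cells, where Slc7a11 was highest, were 16.7% of YAP5SA and 6.13% of control cells. They held 3175 of the 3860 Slc7a11 UMIs of YAP5SA and 547 of the 952 of control. The part of this make-up in the 3.89-fold was not tested. Gstm1 was also lower in YAP5SA endothelial-gated cells, at 43.1 CPM against 95.9 CPM in control. The same held in erythroid-gated cells, at 22.8 against 63.3 CPM, and in immune-gated cells, at 44.7 against 75.8 CPM. Its endothelial and erythroid ratios were past 2-fold lower, as were 1.14% and 1.21% of all genes there. In erythroid-gated cells Gstm1, Gsta1 and Cbr1 were higher in Yap knockout, at 135, 32.5 and 108 CPM against 63.3, 6.84 and 26.7 CPM in control. Of all genes 5.63% were past 2-fold higher there and 4.79% lower. Gsta1 rested on 35 UMIs in 6 of 190 Yap knockout cells and 20 UMIs in 11 of 355 control cells. Whether RNA of other cells added to these values was not tested. Cbr2 was at 40.1 CPM in YAP5SA, 27.9 CPM in Yap knockout and 118 CPM in control immune-gated cells, 2.93-fold (2.50 to 3.43) and 4.22-fold (3.37 to 5.31) lower than control. In endothelial-gated cells it was at 29.8 CPM in YAP5SA, 3.18 CPM in Yap knockout and 51.1 CPM in control. Gstm3, Gpx2 and Gsta1 were under 10 CPM in mesenchymal, endothelial, immune and neural gates of every library, while Gpx2 reached 11.1 CPM in Yap knockout erythroid-gated cells.

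**Figure D4:**
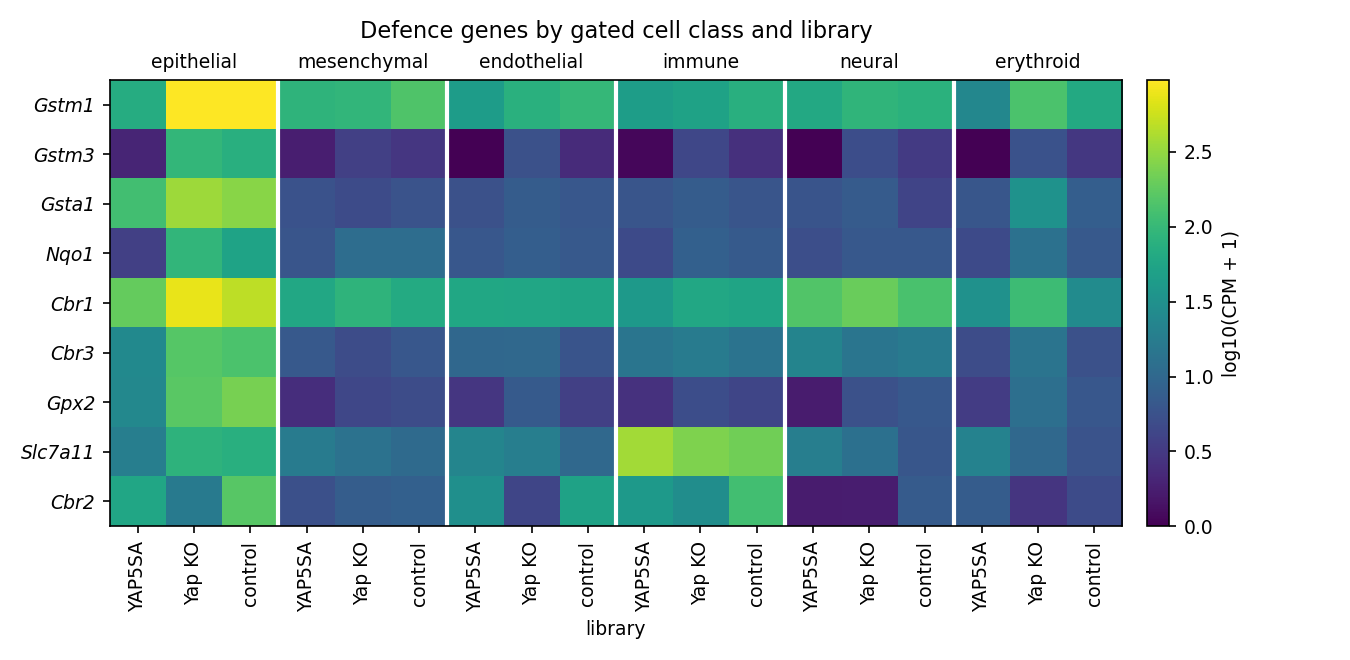
Colour gives log10(CPM + 1) of the 9 genes (rows) in 6 gated cell classes, with the YAP5SA, Yap knockout and control libraries side by side in each. Epithelial Gstm1 and Cbr1 are the brightest in Yap knockout and control, and Slc7a11 is brightest in immune-gated cells.

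The 9 genes were also read among epithelial cells outside every subtype gate, 1484 in YAP5SA, 485 in Yap knockout and 369 in control. These are 1484 of the 1607 YAP5SA epithelial cells on which the genes were chosen. The YAP5SA values there are therefore a description and no separate support. In YAP5SA 7 of the 9 were past 2-fold lower than control, where 6.26% of all genes were lower and 8.43% higher. The other 2 were Gsta1 and Cbr2. The 7 ranged from Cbr1, 2.37-fold lower, to Gstm3, 68.0-fold lower. These cells were not of 1 kind across libraries: in clusters built by the Leiden method, 1346 of the YAP5SA, 0 of the Yap knockout and 2 of the control cells lay in 1 cluster, and 30, 332 and 290 in another. Genes of the gastric glands and surface moved with the comparison, with Pga5 (pepsinogen) at 138, 16841 and 19006 CPM and Tff1 at 37.1, 2533 and 3201 CPM in YAP5SA, Yap knockout and control, as did Msln (mesothelin) at 1352, 7.00 and 28.4 CPM. Their part in the result was not tested. No gene of the 9 was past 2-fold in Yap knockout in these cells, where 2.38% of genes were lower and 2.05% higher. In pit-gated cells, compared between Yap knockout and control only, 2 of 9 were higher by more than 2-fold, Nqo1 and Gpx2, where 6.95% of genes were higher and 11.2% lower. Gpx2 there rested on 124 Yap knockout and 10 control UMIs.

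With each epithelial cell thinned to 1000 UMIs, a cell held a mean of 0.449 of the 9 genes in YAP5SA, 1.24 in Yap knockout and 1.45 in control. None of the 9 was found in 65.2% of YAP5SA cells, 30.4% of Yap knockout cells and 21.5% of control cells. At least 4 of the 9 were found in 1 YAP5SA cell, 35 Yap knockout cells and 17 control cells.

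Other genes of the pathways were counted from lists chosen by function. Over all genes that passed the filter, 6.25% were lower and 7.99% higher in YAP5SA than in control epithelium. Of 22 other glutathione transferases, 17 passed the 10 CPM filter in YAP5SA against control epithelium, and 10 were lower and 0 higher by more than 2-fold, with a median log2 ratio of -1.06 against 0.09 over all genes. Microsomal Mgst3 was at 173 CPM in YAP5SA and 994 CPM in control. Gsta4 was not lower, at 784 CPM in YAP5SA and 747 CPM in control, and it outweighs Gsta1 in the alpha-class sum, which was 925 and 1048 CPM. The 7 mu-class genes summed to 183 CPM in YAP5SA and 1313 CPM in control, 7.18-fold lower (6.85 to 7.53). Reads of related genes in these families may be split or shared between members by the counting, which makes single members less certain than the sums.

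In glutathione synthesis and recycling, 8 of 12 genes passed and 2 were lower: Gclc, the catalytic subunit of the rate-limiting enzyme, at 30.7 CPM in YAP5SA and 228 CPM in control, and Glrx. Its modifier subunit Gclm was at 53.9 and 85.4 CPM. Among thioredoxin and peroxiredoxin genes 12 of 13 passed, 1 was higher (Prdx6) and 2 were lower (Txnip and Srxn1), and among 11 superoxide and peroxide genes 10 passed and none was past 2-fold. Of 8 NADPH supply genes 1 was lower, Pgd, at 117 CPM in YAP5SA and 271 CPM in control. With 6.25% of all genes lower and 7.99% higher, nothing is read from counts of 1 or 2 in lists this short. In xenobiotic oxidation and conjugation 17 of 33 passed, 8 were lower and 1 was higher, with sulfotransferase Sult1c2 at 3.42 CPM in YAP5SA and 49.6 CPM in control.

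The regulators of NRF2 differed little: 10 of 10 passed and 0 were past 2-fold, with Nfe2l2 at 88.3 CPM in YAP5SA and 102 CPM in control, and Keap1 at 52.7 and 44.7 CPM. Of 18 other NRF2 targets 13 passed, 2 were lower (Hmox1, at 40.5 CPM in YAP5SA and 116 CPM in control, and Blvrb) and 1 was higher (Akr1b8), with a median of -0.06. Genes known as YAP and TEAD targets were higher: 11 of the 19 that passed, out of 21, and 0 lower, with a median of 1.13 and Ccn2 at 193 CPM in YAP5SA and 13.5 CPM in control. One of the 11, Ankrd1, had 0 UMIs in control and lies above that median also with the control set to 3 counts. The shares over all genes were 6.25% lower and 7.99% higher in YAP5SA than in control epithelium. In Yap knockout against control epithelium the other transferases had 2 higher (Gsta2 and Gstp3) and 0 lower of 22. Over all genes 1.75% were higher and 2.65% lower there. In glutathione synthesis and recycling 11 of 12 genes passed, with 1 higher, 0 lower and a median of 0.18 against 0.03 over all genes. Gclc, in that list, was not called past 2-fold, at 114 CPM in Yap knockout and 228 CPM in control.

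**Figure D5:**
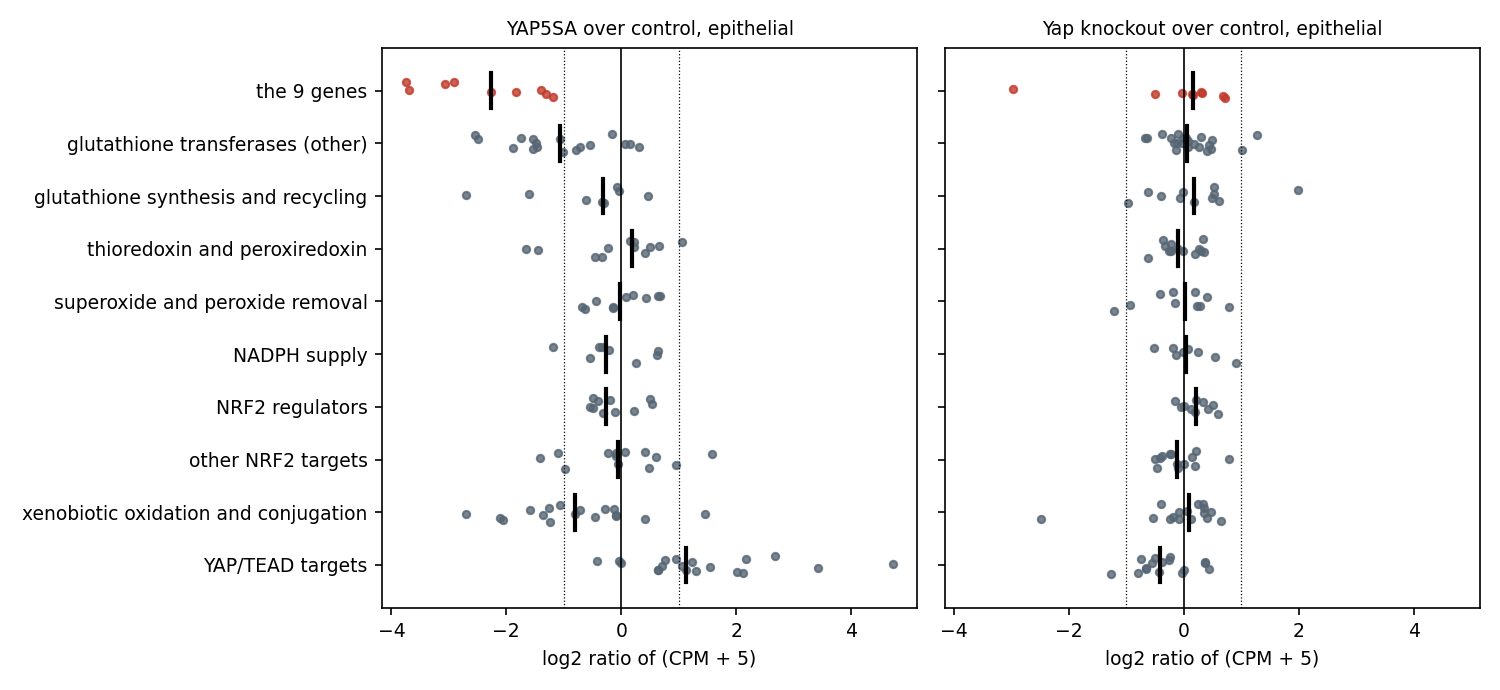
log2 ratio of (CPM + 5) in epithelial-gated cells of the 9 genes and of the genes of 9 pathway lists that passed the 10 CPM filter, YAP5SA over control on the left and Yap knockout over control on the right; black bars are list medians and dotted lines mark 2-fold. The 9 genes lie left of -1 in YAP5SA, and the median of the other glutathione transferases is -1.06.

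Across 22 sums of library by gated class or subtype with at least 50 cells, 7 of the 9 genes varied alike: Pearson r of log2(CPM + 5) ranged between 0.77 and 0.97 among Gstm1, Gstm3, Gsta1, Nqo1, Cbr1, Cbr3 and Gpx2. Slc7a11 and Cbr2 did not share that pattern, with r between -0.24 and 0.30 to those 7 genes and 0.44 to each other. These sums share libraries and cell classes, and they include YAP5SA epithelial sums, on whose low levels the 9 genes were chosen. Most of the sums are non-epithelial, where Gstm3, Gsta1 and Gpx2 were mostly under 10 CPM. For these reasons r is a description only. Among 7228 genes, the most alike to Gstm1 were Gstm3, Myo1a and Dmbt1. The most alike to Gstm3 were Myo1a, Sult1b1 and Eps8l3, and to Nqo1 Sult1d1, Sult1b1 and Gstm3. Gsta1 was most like Tmem54, Tjp3 and Phgr1, Cbr1 most like Rap1gap, Homer2 and Stard10, and Cbr3 most like Ttr, Prorp and Fbp2. Gpx2 was most like Akr1c13, Fermt1 and Cfi, Slc7a11 most like Ell2, Runx1 and Zc3h12a, and Cbr2 most like Gltp, Serpinb8 and Ptges.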

How the data were processed

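Raw UMI counts were deposited as one gene-by-cell matrix per library. The files carry the mark of PISA 1.0, per the file headers, and the submitters' processing notes name STAR and GRCm39. Capture used the DNBelab C Series kit, which reads the 3′ end, per the labels' protocols; cells under 1000 UMIs are absent. The libraries held 9439 YAP5SA, 5739 Yap knockout and 7692 control cells, with 65843658, 40857358 and 48910624 UMIs. From these counts, cells with at least 500 genes and at most 20% mitochondrial UMIs were kept, and the highest 6% of Scrublet scores (scanpy 1.11.5) were removed, since its own threshold called 0 cells.

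Cell classes were gated per cell on fixed markers, the 9 genes not among them (epithelial enrichment at least 2, subtype at least 3, with 3 markers). Each cell went to the class, and each epithelial cell to the subtype, of highest enrichment. UMIs were summed per class and library and scaled to CPM. Ratios have exact conditional Poisson 95% intervals and shares exact Clopper-Pearson intervals. The ratio interval and the 2-fold call were run on simulated Poisson counts, the model that the interval assumes. Spread between cells was not simulated, so that run checks the calculation only. The floor is 3 counts. The genes named are the 9 genes, up to 3 highest and lowest of each list and a fixed set of pathway genes; exceptions (Epcam, Yap1, S100a8, Gsta4 and family sums) were chosen for context. The genes and lists were chosen with earlier results of these data known. Of the 3 promoter motifs, TGAGNNNGC was added after TGACNNNGC and GGAATG gave no match. Calculations ran in scipy 1.17.1 and numpy 2.4.6 under Python 3.11.15, and clusters were found with igraph 0.11.9. Organoid data were not analysed here.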

Additional observations from a re-analysis of the deposited data

Results flagged for a closer look

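Slc7a11 went in opposite directions in the epithelium and the mesenchyme of YAP5SA against control. It was at 17.6 CPM in YAP5SA and 75.2 CPM in control epithelium, and at 16.2 CPM (102 UMIs) in YAP5SA and 9.88 CPM (134 UMIs) in control mesenchyme. The log2 ratio was lower by 2.34 in the epithelium than in the mesenchyme (a difference of -2.34). With 1 library per genotype this difference was not tested. In neural-gated cells Slc7a11 was at 18.1 CPM in YAP5SA and 5.24 CPM in control. Erythroid-gated cells had 20.1 and 4.79 CPM, and endothelial-gated cells 21.8 and 9.05 CPM, in the same order. The neural and erythroid ratios were past 2-fold higher, as were 2% and 7.23% of all genes there. Immune-gated cells of YAP5SA had 374 CPM. Whether their RNA added to the values of the other gates was not tested.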

How the results depend on the processing

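The count of genes lower in YAP5SA than control epithelium, 9, stayed within 1.5 times under every setting run; it was 7 outside the subtype gates and 7 with Leiden clusters that only needed epithelial as their highest class. For Yap knockout against control the count lower, 1, became 0 outside the subtype gates, 0 without squamous, intestinal and plasma-protein gated cells, and 3 in cells with at most 6000 UMIs; the count higher, 0, became 1 in cells with no UMI of dividing-state genes and 1 in cells with at most 6000 UMIs. In YAP5SA against control mesenchyme the count lower, 0, became 1 with Leiden clusters (Gstm1, log2 ratio -1.08). Shares of all genes moved as well. In Yap knockout epithelium 2.65% were lower and 1.75% higher in the main gate. Outside the subtype gates these were 2.38% and 2.05%, and with at most 6000 UMIs 3.94% and 7.85%. Shares for the other settings are not given, so nothing is read from changes by 1 gene. The YAP5SA epithelial count is no support, since the 9 genes were chosen on it. Cbr2 turned round: its log2 ratio was 0.50 in YAP5SA and 0.69 in Yap knockout outside the subtype gates, and 0.60 and 0.28 without squamous, intestinal and plasma-protein gated cells, where the squamous-gated cells that hold its UMIs are left out by construction. Without the cell of each library with the most Cbr2 UMIs, the ratios outside the subtype gates were 0.79 and 0.31 and the Yap knockout count lower was again 0; with that cell left out in Yap knockout alone the ratio was -0.30. The cause of the other changes was not tested. Slc7a11 in YAP5SA ranged between -4.48 and -1.04 over 22 settings and Gstm3 between -5.22 and -2.19. The settings of at most 6000 UMIs, of cells with a dividing-state UMI, of the cells with the most Cbr2 UMIs and of clusters by highest class were chosen after seeing the data. No paired analysis was possible because each genotype has 1 library, and no replicate could be left out. Gstm3 and Nqo1 in YAP5SA epithelium rest on 18 and 45 UMIs.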
